A study of Mus musculus with 6 samples.

Results

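Vomeronasal receptor genes were examined in mouse embryonic fibroblasts (MEFs) with normal and with severely reduced DNA methylation. The members were every array probe whose platform gene symbol starts with Vmn1r, Vmn2r, V1r or V2r, which gave 219 probes for 173 genes of 45281 probes and 19074 named genes. Of these, 159 probes (131 genes) belonged to the V1R class and 60 probes (42 genes) to the V2R class. RNA was hybridized to single-colour Illumina BeadChips for the mouse genome, where each probe is a short sequence assigned to a gene by the platform annotation. There were 3 arrays of Dnmt1+/+ MEFs (genotype Trp53-/- Dnmt1+/+) and 3 of Dnmt1-/- MEFs (Trp53-/- Dnmt1-/-), and the sources name no treatment and no age. Both groups therefore lack Trp53, the Dnmt1-/- cells carry a hypomorphic Dnmt1 allele on both chromosomes per the study's methods, and the background strain is given as unknown. The sources describe 1 line of cells for each genotype, so an effect of genotype and a difference between lines cannot be told apart. They do not state that replicates came from different cultures, and p-values then cover only the spread between these arrays, which may be technical.

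V1R and V2R proteins are G protein-coupled receptors of the vomeronasal organ, the sense organ in the nose through which mice detect pheromones and other social cues. V1Rs sit on apical sensory neurons that use the G protein subunit encoded by Gnai2, and V2Rs on basal neurons that use the one encoded by Gnao1. A vomeronasal neuron expresses very few of the many receptor genes, which lie in large clusters of near copies. Dnmt1 copies methylation onto CpG sites of newly made DNA, and some tissue-restricted genes depend on that methylation for silence in other cells. The comparison asks which members of a large, normally silent receptor family had RNA in cells that have lost it.

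The members that stood out, Vmn1r123 and Vmn1r93, both lie in 1 cluster of V1R genes on chromosome 7. The 300 bases from 250 before to 50 after the annotated start are shown for both, and for Vmn1r100, the member on the array whose window is nearest to that of Vmn1r123 and which was not detected on any array. They are from RefSeq (GRCm38.p6), run 5′ to 3′ on the gene's strand, and have each CpG in capitals.
Vmn1r123, chr7:21161935-21162234, + strand: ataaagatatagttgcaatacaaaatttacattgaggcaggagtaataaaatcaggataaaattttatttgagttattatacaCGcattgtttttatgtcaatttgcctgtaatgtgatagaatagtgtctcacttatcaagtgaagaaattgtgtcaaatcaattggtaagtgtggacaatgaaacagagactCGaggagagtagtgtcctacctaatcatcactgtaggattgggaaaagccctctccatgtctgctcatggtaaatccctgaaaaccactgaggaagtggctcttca
Vmn1r93, chr7:20139039-20139338, - strand: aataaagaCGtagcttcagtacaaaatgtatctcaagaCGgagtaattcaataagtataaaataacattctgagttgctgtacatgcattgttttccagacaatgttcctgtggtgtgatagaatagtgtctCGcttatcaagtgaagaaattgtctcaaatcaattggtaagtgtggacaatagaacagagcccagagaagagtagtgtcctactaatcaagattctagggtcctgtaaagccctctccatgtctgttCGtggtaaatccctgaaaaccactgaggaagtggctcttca
Vmn1r100, chr7:20417692-20417991, + strand: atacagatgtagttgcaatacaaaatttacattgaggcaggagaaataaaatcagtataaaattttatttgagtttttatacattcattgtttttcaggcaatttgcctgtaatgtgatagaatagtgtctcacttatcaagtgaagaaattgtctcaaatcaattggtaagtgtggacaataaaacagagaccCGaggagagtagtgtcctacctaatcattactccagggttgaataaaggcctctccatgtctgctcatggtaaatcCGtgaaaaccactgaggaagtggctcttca
In all 3 the annotated start is an ATG, as in 285 of 326 vomeronasal receptor windows, so the windows span the coding start, with their last 50 bases in coding sequence, and need not hold the start of transcription. Vmn1r123 and Vmn1r100 have 2 CpGs each and Vmn1r93 has 4. The median was 1 CpG over the 326 vomeronasal receptor windows and 7 over all 32851 RefSeq windows, and 42.6% of the former and 85.9% of the latter held 2 or more. At least 4 were held by 5.83% and 68.6%. DNA methylation was not measured on these arrays.

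Nearly the whole family was silent in both groups at the level these arrays can measure. A probe is called detected here where its detection p, the share of negative control beads at least as bright, was under 0.01. Without any prior filter, 2, 0 and 2 of the 219 probes were detected on Dnmt1+/+ replicates 1, 2 and 3 (0.913%, 0% and 0.913%), and 2, 4 and 4 on Dnmt1-/- replicates 1, 2 and 3 (0.913%, 1.83% and 1.83%). The threshold alone lets through 2.19 of 219 probes that bind nothing, while 32.5% to 36.4% of all probes were detected per array. The mean count was 1.33 ± 1.15 (SD, n = 3) on Dnmt1+/+ arrays against 3.33 ± 1.15 (SD, n = 3) on Dnmt1-/- arrays, with a two-sided p of 0.3 in an exact permutation test over the arrays. With 3 arrays against 3 that test cannot go below 0.1, so it could not have passed 0.05. Without the Vmn1r123 probe and the risen probe of Vmn1r93, left out after seeing the data, the counts were 2, 0 and 2 against 0, 2 and 2. Over the 6 arrays, 211 probes (96.3%) were never detected, and 8 (3.65%) were detected at least once, against 40.8% of all probes.

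**Figure D1:**
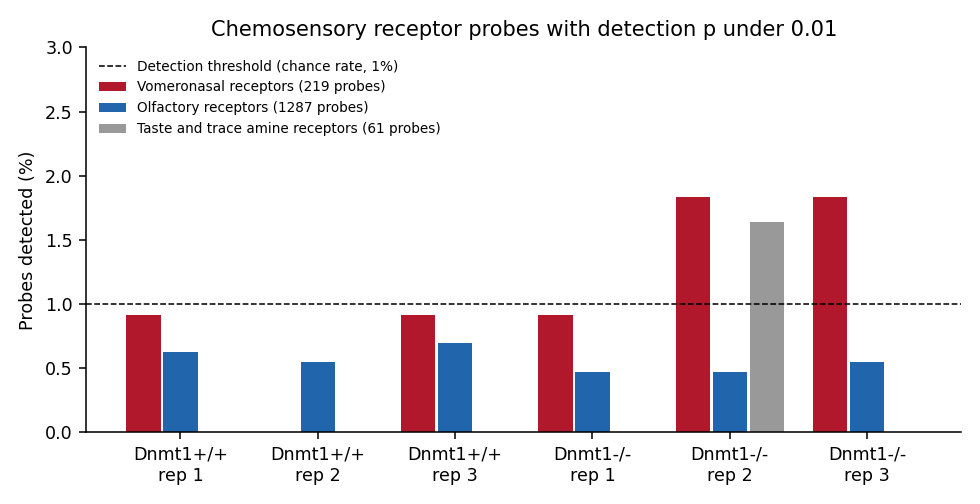
Percent of probes detected (y axis, detection p under 0.01) on each of the 6 arrays (x axis) for vomeronasal, olfactory, and taste and trace amine receptors, with the 1% that chance allows as a dashed line. Vomeronasal receptor bars stay between 0% and 1.83%, and olfactory receptor bars stay under 1% on every array.

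The median level of the family overlapped between the groups. On the normalized log2 scale the median of the 219 probes was 4.275 to 4.279 on the Dnmt1+/+ arrays and 4.276 to 4.282 on the Dnmt1-/- arrays, a difference of 0.0032 (exact permutation test, two-sided p = 0.3, smallest possible 0.1). Without the Vmn1r123 probe and the risen Vmn1r93 probe it was -0.00058. Those 2 probes were picked by their values in these data, so no test is read from the rest. Among the 211 probes that were never detected, the Dnmt1-/- mean was the higher for 100, and the differences ran from -0.22 to 0.28 with a median of -0.0037 and an SD of 0.078. The V2R class had 0 probes detected on any Dnmt1+/+ array and 1 on 1 Dnmt1-/- array.

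The probe named for Vmn1r123 was not detected in Dnmt1+/+ MEFs and was detected on every Dnmt1-/- array. Whether it also binds RNA of near copies of the gene is not known here. This probe (ILMN_1250330) read 4.55, 4.23 and 4.17 on the Dnmt1+/+ arrays and 10.40, 9.41 and 9.67 on the Dnmt1-/- arrays (normalized log2 signal, replicates 1 to 3). Before normalization the signals were 110, 100.8 and 93.4 against 1940, 554 and 529. All Dnmt1-/- arrays lay far above all Dnmt1+/+ arrays, and Dnmt1-/- replicate 1, which had the highest mean raw signal over all probes, was the highest on either scale. The difference was 5.51, with limma adjusted p = 0.000694 when every probe was tested. A limma fit of probes detected on at least 3 arrays gave SE 0.26 and adjusted p = 1.06e-05. This probe passed that filter only through the Dnmt1-/- arrays. On this normalized scale the level was at least 29.8-fold higher. Such a bound divides the mean of the bright group by that of the dim group, with each dim array set to its lowest detected signal wherever the probe lay under it. Every bound given here holds for this processing only. In bulk RNA, more cells with the transcript and more transcript per cell cannot be told apart.

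Vmn1r93 showed the same pattern on 1 of its 2 probes. Probe ILMN_2949970 read 4.19, 4.28 and 4.24 in Dnmt1+/+ and 8.63, 8.10 and 8.15 in Dnmt1-/- MEFs (normalized log2 signal), or 97.8, 103.2 and 98.5 against 667, 273 and 237 before normalization. Again no Dnmt1-/- array came near a Dnmt1+/+ array. The difference was 4.05, at least 10.2-fold, with limma adjusted p = 0.000252 when every probe was tested. The limma fit of probes detected on at least 3 arrays gave SE 0.18 and adjusted p = 8.66e-06. This probe too passed that filter only through the Dnmt1-/- arrays. The second probe (ILMN_2450052) was not detected on any array, with means of 4.31 and 4.30, and its groups overlapped. Vmn1r93 was the only gene of the 36 members with more than 1 probe whose probes differed in call. The part of the transcript that each probe binds is not known here, nor whether RNA of near copies binds as well.

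**Figure D2:**
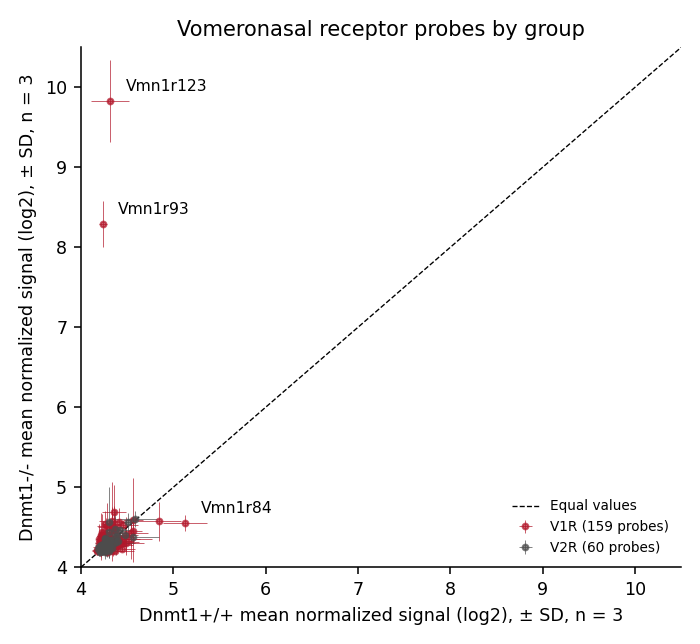
Mean normalized signal (log2) of each of the 219 probes in Dnmt1+/+ (x axis) and Dnmt1-/- MEFs (y axis), with SD over 3 arrays, coloured by receptor class and with a line of equal values. Vmn1r123 and Vmn1r93 lie at 9.83 and 8.29 on the y axis and near background on the x axis, and the other probes cluster at background in both groups.

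These were the 2 members that rose, and 0 fell, in a limma fit with p adjusted over all probes tested. In that fit 8.48% of 15795 probes rose and 7.69% fell. A probe was tested if detected on at least 3 of the 6 arrays, and since both members passed only through the Dnmt1-/- arrays, they had to differ there, and their count among tested members carries no weight. With every probe tested, the count was again 2 of 219 risen and 0 fallen, beside 2.02% of 45281 probes risen and 2.01% fallen. Adjusted p was then 0.000694 for Vmn1r123 and 0.000252 for Vmn1r93, and 4 members lay higher and 2 lower at an unadjusted limma p under 0.05, a level reached by 16.1% of all probes. By detection alone, 2 members (0.913%) were seen on all 3 Dnmt1-/- arrays and 0 Dnmt1+/+ arrays, close to the 0.819% of all probes, and 0 members showed the reverse, against 0.755% of all probes. For scale, Tex19.1, a germ-cell gene, was at least 85.0-fold higher and Rhox5, a homeobox gene of the reproductive tract, at least 51.2-fold higher. Both were picked from the genes with the largest rises in an earlier account of these data.

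The size of both rises depended on the processing, while both remained called. With the authors' processed values the differences were 3.24 for Vmn1r123 and 2.02 for Vmn1r93 (limma adjusted p = 0.000166 and 0.000124), and without background correction they were 3.08 and 1.83. As folds, these differences lie below the bounds given above. With Dnmt1-/- replicate 1 as the only array of its group, a choice made after seeing the data, the differences were 6.30 and 4.62.

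The family was then read by whether all Dnmt1-/- arrays exceeded all Dnmt1+/+ arrays, with no filter. This held for 13 probes (5.94%), below the 9.62% of all probes, and the reverse held for 10 (4.57%, against 11.5% of all probes). Of the 13, Vmn1r123 and Vmn1r93 were detected. The other 11 were never detected on any array, and differed by 0.05 to 0.28. They were probes of Vmn1r189, Vmn1r216, Vmn1r231, Vmn1r235, Vmn1r47, Vmn1r48, Vmn1r53, Vmn1r65, Vmn2r22, Vmn2r69 and Vmn2r74 (named after their values were seen), on chromosomes 13, 17, 6 and 7. Among never-detected members, 5.21% lay above and 4.27% below in this sense, near the 5.13% and 5.49% of never-detected probes on the whole array. The largest of the 11, Vmn1r48, read 4.27, 4.27 and 4.24 in Dnmt1+/+ and 4.55, 4.38 and 4.70 in Dnmt1-/- MEFs, all below the lowest signal detected on the same array, which was 4.77 to 5.07.

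Detections of receptors other than Vmn1r123 and Vmn1r93 were few and dim. They numbered 0 to 2 per array, where the threshold alone lets through 2.19 of 219 probes that bind nothing. Vmn1r84 (ILMN_1220897) read 5.39, 4.92 and 5.07 in Dnmt1+/+ and 4.47, 4.66 and 4.53 in Dnmt1-/- MEFs. It was detected on Dnmt1+/+ replicates 1 and 3 and on 0 Dnmt1-/- arrays, and its groups did not overlap. It was below the number of detections needed for the test. The difference was -0.58, at least 1.12-fold lower, with limma adjusted p = 0.084 when every probe was tested. Vmn1r45 (ILMN_1249741) was detected on the same Dnmt1+/+ arrays and read 5.04, 4.58 and 4.92 against 4.51, 4.85 and 4.37, with overlapping groups and a difference of -0.27. A further 4 members were detected on a single Dnmt1-/- array each and are named after their values were seen: Vmn1r175 and Vmn2r78 on replicate 2, at 5.18 and 5.07, and Vmn1r52 and Vmn1r83 on replicate 3, at 5.14 and 5.06. Their other arrays were at 4.69 or lower, and the groups overlapped for each.

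**Figure D3:**
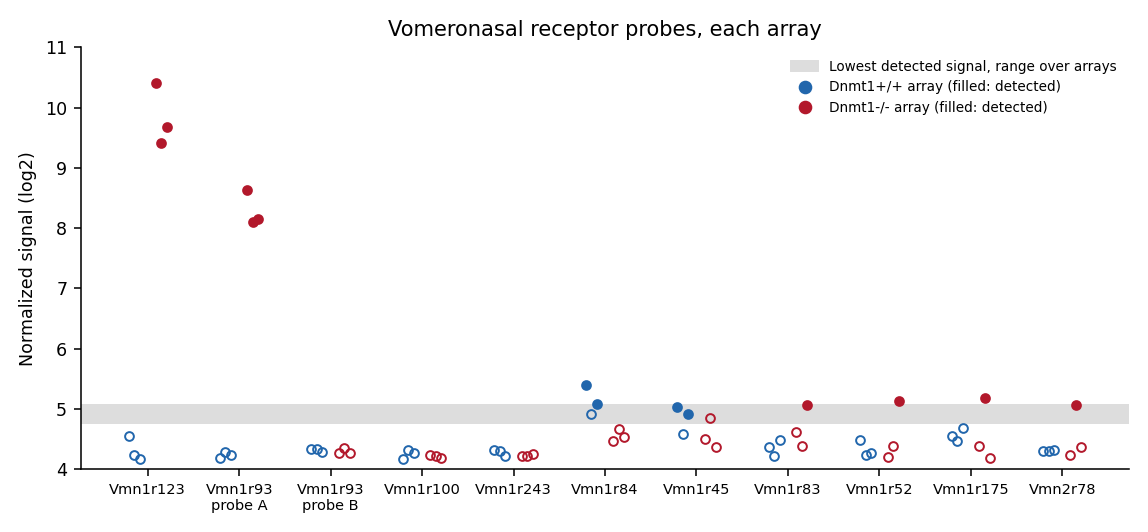
Normalized signal (log2, y axis) on each of the 6 arrays for probes of the named receptors and of Vmn1r100 and Vmn1r243 (x axis), where probe A of Vmn1r93 is ILMN_2949970, probe B is ILMN_2450052, filled points are detected, and the grey band is the range over arrays of the lowest detected signal. Vmn1r123 and Vmn1r93 probe A reach 8.10 to 10.40 on the Dnmt1-/- arrays, and every other point lies at or below 5.39.

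Both risen receptors lie in a block of chromosome 7 between Nlrp9b and Nlrp4e, 2 genes of a family known from the oocyte. By gene order in the RefSeq table the block holds 147 genes, of which 81 are Vmn1r genes and 70 of these are protein-coding. The array named a probe for 4 of the 81, namely Vmn1r93, Vmn1r243, Vmn1r100 and Vmn1r123. The other 2 were silent. Vmn1r100 read 4.18, 4.32 and 4.27 in Dnmt1+/+ and 4.23, 4.21 and 4.19 in Dnmt1-/- MEFs. Vmn1r243 read 4.31, 4.30 and 4.22 against 4.23, 4.22 and 4.26. Between Vmn1r93 and Vmn1r123 stand 29 other Vmn1r genes, 2 of them with a probe. At the edges of the block, Nlrp9b was never detected, and Nlrp4e was detected on 2 Dnmt1-/- arrays and not tested, with means of 4.25 and 5.14 and groups that did not overlap. Across the genome, chromosome 7 carried 77 member probes for 63 genes, 6 of the 8 ever detected. Chromosome 6 carried 61 probes for 46 genes and the remaining 2 detected probes, and the 36 probes on chromosome 13 and 24 on chromosome 17 were never detected. Of 357 protein-coding vomeronasal receptor genes in the RefSeq table, 171 had a probe here.

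Most start windows of the block resembled those of Vmn1r123 and Vmn1r93. Of 67 other windows there, 66 were at least 80% identical to that of Vmn1r123 and 66 to that of Vmn1r93, and the exception for both was Vmn1r148, at 49.6% and 50.3%. The window of Vmn1r123 was 92.7% identical to that of the silent Vmn1r100 and 82.5% identical to that of Vmn1r93. Vmn1r93 and Vmn1r100 shared 83.9%. The window of Vmn1r123 was identical to that of Vmn1r160, and 21 of 324 other vomeronasal receptor windows were at least 90% identical to it, of which 1, Vmn1r100, belongs to a gene with a probe. The window of Vmn1r93 was identical to those of Vmn1r114, Vmn1r126 and Vmn1r250 and at least 90% identical to 6, of which 0 belong to a gene with a probe. Only windows were compared. Probe sequences were not used here, so RNA of a gene with such a window and RNA of the named gene cannot be told apart.

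**Figure D4:**
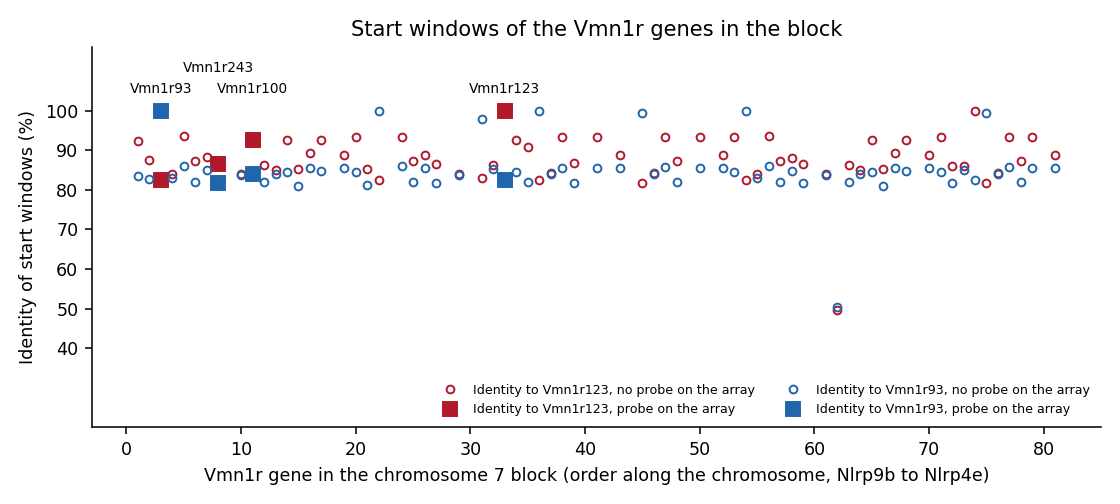
Identity (percent, y axis, from 20%) of each RefSeq start window in the chromosome 7 block to the windows of Vmn1r123 (red) and Vmn1r93 (blue), with Vmn1r genes in their order along the chromosome (x axis) and filled squares for the 4 genes with a probe. Apart from Vmn1r148 at 49.6% and 50.3%, the points lie above 80%. Other genes whose window is identical to that of Vmn1r93 or Vmn1r123 have no probe on the array.

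Olfactory receptors, the largest chemosensory receptor family, and taste and trace amine receptors were read the same way. Of 1287 olfactory receptor probes (1078 genes), 6 to 9 were detected per array, 26 at least once, and of 4 probes tested 0 rose or fell by limma (1 at an unadjusted p under 0.05). All Dnmt1-/- arrays were above all Dnmt1+/+ arrays for 82 (6.37%) and below for 64 (4.97%). The shares were 9.62% and 11.5% of all probes, and 5.13% and 5.49% of probes never detected. Of 61 taste and trace amine receptor probes (50 genes), 1 was detected on any array. No probe of these families was detected on all 3 Dnmt1-/- arrays and 0 Dnmt1+/+ arrays, where 0.819% of all probes were. The difference between the families was not tested.

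Most other genes of vomeronasal signalling were not detected either. Of 48 listed genes with a probe, 38 were detected on 0 arrays, 9 were tested, 2 rose and 3 fell. Over all 15795 tested probes, counted by probe and not by gene, 8.48% rose and 7.69% fell. Ano1 and Bcl11b passed the detection filter only through the group in which they were the higher, so they had to differ, and these counts are a description. All 12 ligand genes, which encode major urinary proteins, an exocrine gland peptide and odorant-binding lipocalins, were silent, as were the 4 formyl peptide receptor genes of vomeronasal neurons. Of 14 receptor partners, 13 were never detected, among them the H2-M10 genes, whose products accompany V2Rs at the membrane. The remaining partner was B2m, the shared light chain of class I molecules, which differed by 0.49 on its brighter probe (limma adjusted p = 0.212).

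In signal transduction, Gng8, a G protein gamma subunit of vomeronasal neurons, read 4.59, 4.46 and 5.41 in Dnmt1+/+ and 5.67, 6.55 and 6.35 in Dnmt1-/- MEFs. It was detected on 1 and 3 arrays and rose, by 1.37 (SE 0.31, limma adjusted p = 0.0219, at least 2.11-fold). Ano1, a calcium-activated chloride channel, rose by 1.05 (SE 0.27, adjusted p = 0.0328, at least 1.38-fold) from undetected values of 4.42, 4.31 and 4.32 to 4.78, 5.87 and 5.56. Gnao1 fell by 0.68 (SE 0.20, adjusted p = 0.0487), from 7.08, 6.82 and 7.41 to 6.29, 6.59 and 6.38, and Gnb1, a widely expressed beta subunit, fell by 0.84 (SE 0.18, adjusted p = 0.0187). A second tested Gnao1 probe (ILMN_2753422) differed by -0.87 (adjusted p = 0.0695). Gnai2, the V1R partner and a widely expressed gene, differed by 0.36 (SE 0.20, adjusted p = 0.259) and was well detected throughout. These calls depended on the arrays and the processing. Gnao1 lost its call whichever array was left out (adjusted p of 0.0568 to 0.134), Ano1 lost its call without each array other than Dnmt1-/- replicate 1 (up to 0.112), Gng8 without Dnmt1+/+ replicates 1 or 2 or Dnmt1-/- replicates 2 or 3 (up to 0.091), and Gnb1 lost its call without Dnmt1+/+ replicate 2 or 3 (0.0915 and 0.0512). With the authors' processed values the differences of Ano1, Gng8 and Gnao1 shrank to 0.39, 0.56 and -0.37 (adjusted p = 0.0608, 0.0384 and 0.0564).

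Among factors of neuronal maturation, Bcl11b, a transcription factor of vomeronasal neuron development, fell by 1.14 (SE 0.20, limma adjusted p = 0.00754, at least 1.37-fold), from 5.66, 5.01 and 5.58 to undetected values of 4.30, 4.23 and 4.30. With every probe tested its limma adjusted p was 0.0272. On the authors' values Bcl11b differed by -0.44 (adjusted p = 0.0238), and by -0.31 when background was left uncorrected (0.0415). These values are of 1 probe (ILMN_2611022). Probes ILMN_1223119 and ILMN_2443624 were never detected and differed by -0.05 and -0.22, with overlapping groups. Probe ILMN_2436183 was detected on 1 Dnmt1+/+ array and differed by -0.61, with groups that did not overlap. Omp, the marker protein of mature olfactory and vomeronasal neurons, was detected on 1 array, Dnmt1-/- replicate 2, where 1 of its probes read 5.23, with the other 5 arrays at 4.44 to 4.72.

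The cells read as fibroblasts by their markers, with 9 of 12 listed genes detected on all 6 arrays and a summed linear signal of 17926 to 20639 in Dnmt1+/+ and 15900 to 18464 in Dnmt1-/- MEFs. Of 11 tested, S100a4 rose and Fn1 and Thy1 fell, where 8.48% of all 15795 tested probes rose and 7.69% fell. The Thy1 probe was detected on 3 Dnmt1+/+ and 0 Dnmt1-/- arrays. It passed the filter only through the Dnmt1+/+ arrays, so it had to differ and its call carries no weight. Of 9 sensory neuron markers with a probe, 1, Ncam1, was detected on all arrays and 4 on none, Cnga2, Gap43, Stmn2 and Tubb3. Adcy3, Gng8 and Ncam1 were tested, and Gng8 rose. Ncam1 differed by -0.92 on its brightest probe (limma adjusted p = 0.149) and by -1.39 on another (ILMN_2722864, 0.0205). The summed signal of these markers was 613 to 866 in Dnmt1+/+ and 562 to 603 in Dnmt1-/- MEFs. Of 4 markers of vomeronasal supporting cells 3 were never detected, and Cbr2 was detected on all 6 arrays (summed signal 237 to 573 and 207 to 285). All 3 blood and all 4 germ cell markers were never detected (155 to 161 and 154 to 157 for blood, 138 to 143 and 134 to 150 for germ cells). The sums cover 25, 19, 9, 8 and 7 probes in the order given. They include the background of undetected probes, so their sizes cannot be compared between cell types. Dnmt1 fell by 2.11 (SE 0.28, adjusted p = 0.00193). Mean raw signal was 326 to 357 on Dnmt1+/+ arrays and 397, 259 and 217 on Dnmt1-/- replicates 1 to 3, and the part of this spread in the values above was not tested.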

How the data were processed

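RNA of Dnmt1+/+ and Dnmt1-/- MEFs was measured on 6 arrays, 3 a group, grouped by GEO's descriptions. Per the labels and file headers, 2 tables were deposited: raw linear intensity with a detection p-value for every probe on every array, and processed intensity that the authors made with lumi (version not given). The sources do not settle how the latter was returned to a linear scale. The raw table was processed with neqc of limma 3.58.1 (R 4.3.3): background from detection p-values, offset 16, quantile normalization, log2. Probes detected (p under 0.01) on at least 3 arrays, 15795, were tested with limma lmFit and eBayes, two-sided, group as the only term, Benjamini-Hochberg adjustment over all tested probes (threshold 0.05). The number of arrays limits the precision. The limma fit was tested on simulated normalized values, and the other steps were not.

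Probe symbols came from the platform annotation, in which 34885 probes have 1 symbol, 18 several and 10378 none. Entrez identifiers of all 219 member probes matched the RefSeq table (GRCm38.p6), used for names, chromosome and gene order, and 153 of 173 member genes had a start window (Biopython 1.88). Identity was taken from pairwise alignment of windows. For a pathway gene with several tested probes the brightest was used.

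The members, gene lists and tests were chosen with earlier results of these data known. Genes were named where detected on at least 2 arrays of a group, called, or detected with groups apart. Of the other lists, called genes and 5 fixed pathway genes were named. Trpc2 was not analysed here. Alternatives were the authors' processed values, other normalizations, background corrections, filters and detection thresholds, a replicate block and each array left out.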

Additional observations from a re-analysis of the deposited data

How the results depend on the processing

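Vmn1r123 and Vmn1r93 rose, and 0 members fell, under each of the alternatives run: the authors' processed values, median scaling, cyclic loess, no background correction, no filter, a detection threshold of 0.05 in the filter, the replicate block and each array left out (limma adjusted p of at most 0.000746). Arrays were left out with the tested probes held fixed. With the filter recomputed, both were detected on 2 arrays without a Dnmt1-/- array and would not be tested. Leaving out 1 array gave differences of 5.12 to 5.80 for Vmn1r123 and 3.75 to 4.24 for Vmn1r93, and 714 to 1365 probes risen and 454 to 1178 fallen. Replicate numbers did not pair the samples (correlations of same-numbered deviations -0.229, 0.335 and -0.14), and with the replicate block 945 probes rose and 691 fell.

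Counts of members whose groups did not overlap moved most. They were 20 to 29 higher and 15 to 26 lower with 1 array left out (9.13% to 13.2% and 6.85% to 11.9% of members, against 13.2% to 15.3% and 15.4% to 18.1% of all probes), as fewer arrays overlap less. With Dnmt1-/- replicate 1 alone (chosen after seeing the data) they were 58 and 50 (26.5% and 22.8%, against 27.8% and 32.1%). Median scaling gave 29 and 2, with 13.1% and 7.66% of all probes, and the cause was not tested. Among the 8 members detected at least once there were 2 and 1, beside 16.1% and 20.2% of all such probes. Detected members averaged 3.67 and 6.33 per array (Dnmt1+/+ and Dnmt1-/-) at a threshold of 0.05. Both means are below the number that this threshold alone would let through if no member probe bound anything. At 0.001 detected members averaged 0.333 and 2, and Dnmt1-/- replicate 1 alone had 2. With 1 array left out they averaged 1 to 2 and 3 to 4. The 2 called probes, of Vmn1r123 and Vmn1r93, were also left out, a choice made after seeing the data. The Dnmt1-/- mean was then 1.33, and the difference of family medians turned to -0.00058 from 0.0032 (0.0019 to 0.0054 with 1 array left out). The difference of Vmn1r84 shrank to -0.20 on the authors' values, and to -0.14 when background was not corrected. Of the pathway calls, those of Ano1, Gng8 and Gnao1 were lost with no filter (adjusted p = 0.119, 0.0979 and 0.0995) and without background correction (differences 0.28, 0.43 and -0.35, adjusted p = 0.0928, 0.0565 and 0.069). Ano1 and Gnao1 were also lost under the replicate block (0.0632 and 0.1), and Gnao1 with median scaling and cyclic loess (0.0666 and 0.0793). A receptor transcribed below the lowest detected signal would not be seen here.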
